A study of Homo sapiens with 2 samples.

Results

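The 9 genes described here are regulators and a surface marker of the epithelium that lines the uterus: the transcription factor genes FOXA1, FOXA2, SOX17, PAX8, PAX2, EMX2, MSX1 and MSX2, and the mucin gene MUC1. They were chosen by name from 19974 protein-coding genes, and each was examined over its RefSeq span on hg38 with 20 kb on each side. DNA enriched with an antibody against TCF19, a nuclear protein with a histone-binding PHD finger, was sequenced (ChIP-seq) in Ishikawa cells, an established endometrial cancer line. The first population carried a lentivirus that overexpressed TCF19, and the second carried a control lentivirus; both were selected with puromycin and treated with the same antibody, so the control library holds whatever the antibody enriched in cells without added TCF19. Each population gave 1 library and 1 list of called peaks, so differences between the libraries have no replicate check and no test was made. Intervals after a value are 95% intervals for counting error only. The lists measure enriched DNA and not RNA, so the expression of these genes, and with it the endometrial identity of the cells, was not checked.

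Most of the epithelium of the uterus, oviduct and upper vagina descends from the Müllerian ducts, and paired-box, homeobox, SOX and forkhead factors mark that descent. PAX2 and PAX8 act early in duct formation, EMX2 is needed for the urogenital tract in mice, and MSX1 and MSX2 prepare the mouse uterus for the embryo. FOXA2 and SOX17 are needed for uterine glands in mice, and FOXA1 is a pioneer factor, one that can bind closed chromatin, that works with steroid receptors. MUC1 is a membrane mucin on the apical surface of the epithelium.

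The TCF19-overexpressing list held 112212 summits and the control list 170334, with genome averages of 51.76 and 57.96 reads per 10 kb. A summit is the point of highest read pileup in a called interval, and its pileup (overlapping extended reads) was recovered in whole reads from the deposited statistics. TCF19 itself had 3 summits in the overexpressing library, the highest with 143 reads (120.5 to 168.5), and 0 in control. Reads from the lentiviral copy of TCF19 and reads from the gene's own locus cannot be told apart in these lists.

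All 9 genes had at least 1 summit in their windows in each library, which is the common state: 95.3% of protein-coding genes did in the overexpressing library and 95.4% in control. The 9 windows held 60 summits in 51 intervals in the overexpressing library and 47 summits in 43 intervals in control. MUC1 had 7 summits in the overexpressing library and 2 in control, EMX2 had 7 and 3, FOXA1 had 6 and 4, PAX2 had 15 and 14, and MSX2 had 6 and 5. SOX17 had 8 in each library, PAX8 had 6, FOXA2 had 3 and MSX1 had 2. Thus 5 of the genes had more summits in the overexpressing library, 4 had equal numbers and 0 had fewer; over all protein-coding genes 27.8% had more in the overexpressing library and 58.2% had fewer. This tally depended on the flank. At 5 kb, FOXA2 (0 in the overexpressing library and 2 in control), PAX8 (4 and 5) and PAX2 (10 and 12) had fewer in the overexpressing library. At 50 kb, SOX17 (8 and 11) and MSX1 (5 and 6) did. When as many summits of highest fold were taken from the control list as the overexpressing list holds, the control windows held 19 summits. This cut leaves the overexpressing list whole and ranks control summits by fold. The median fold in the control windows was 3.32, against 3.87 over the control list, so the cut falls harder on these windows and does not match the libraries for depth.

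**Figure D1:**
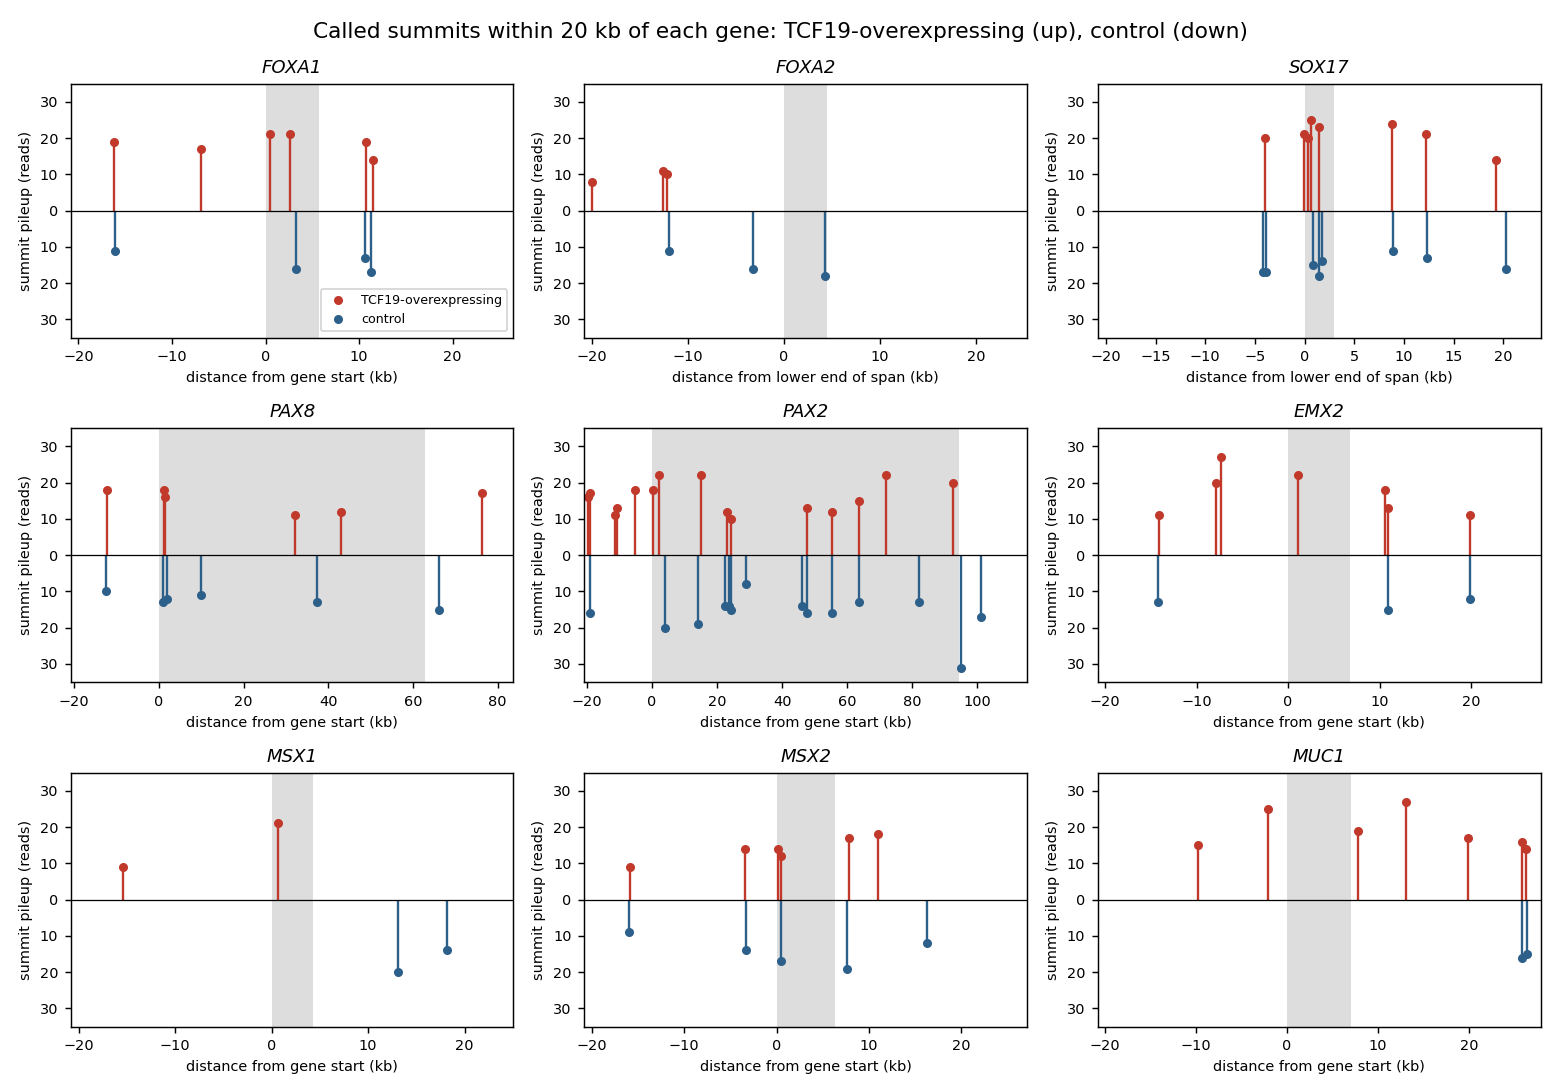
Called summits in the window of each gene. The horizontal axis is the distance in kb from the gene start in the direction of transcription (from the lower end of the span for FOXA2 and SOX17), grey is the gene span, and stem height is the summit pileup in reads, with the overexpressing library above the line and the control library below it. EMX2 and MUC1 have more stems above the line (7 each) than below it (3 and 2), and SOX17 has 8 on each side.

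Scaled to window length, the median over the 9 genes was 1.3 summits per 10 kb in the overexpressing library and 0.67 in control. The medians over all protein-coding genes were 0.61 and 0.74, with quartiles of 0.35 and 0.91 in the overexpressing library and of 0.46 and 1.03 in control. Pooled as all summits over the total window length, the 9 genes had 1.08 in the overexpressing library and 0.85 in control. The pooled values over all protein-coding genes were 0.54 and 0.71, so the order in control depended on the measure. SOX17 was the densest in both libraries, at 1.86 summits per 10 kb in each. MSX1 was the sparsest in the overexpressing library at 0.45, and MUC1 in control at 0.42, with MSX1 next at 0.45. EMX2 (1.5 in the overexpressing library and 0.64 in control) and MUC1 (1.49 and 0.42) had the widest gaps between libraries. Among the 7 genes shorter than 10 kb the medians were 1.31 in the overexpressing library and 0.67 in control, against 0.69 and 0.7 over the 5658 protein-coding genes of that length.

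**Figure D2:**
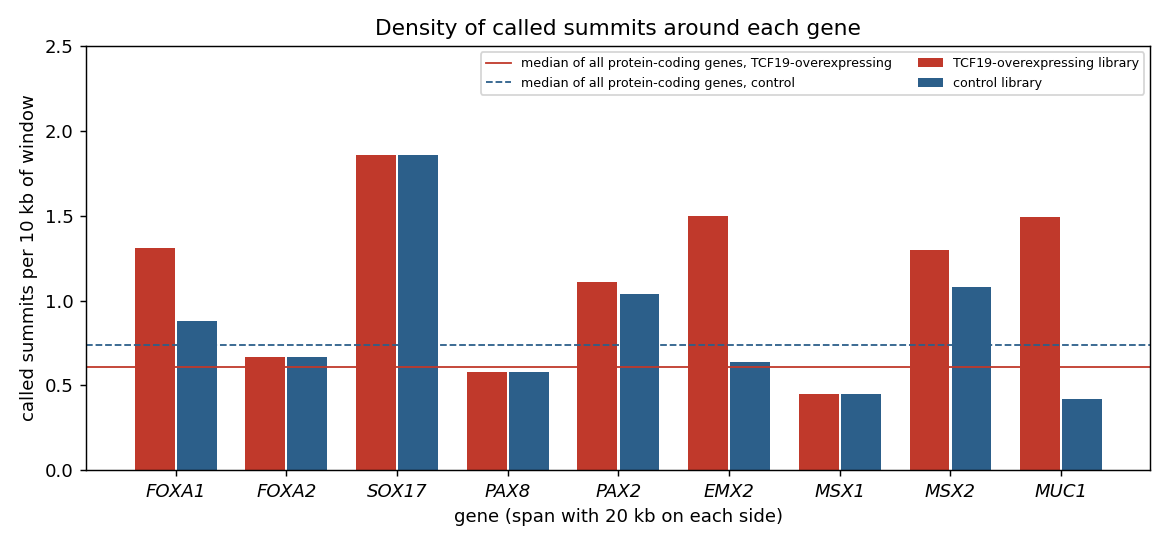
Called summits per 10 kb of window (vertical axis) for each gene, with the overexpressing library on the left of each pair and control on the right. Lines are the medians over all protein-coding genes, 0.61 in the overexpressing library (solid) and 0.74 in control (dashed); the bars of SOX17 stand highest, at 1.86 in each library.

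The pileups and folds of the summits stood on opposite sides of the medians of the whole lists. The median pileup in the windows was 17 reads in the overexpressing library and 15 in control, above the 13 and 12 of all summits. The median fold enrichment, the authors' ratio of the summit pileup to the local background, was 3.32 in each library, below the 4.05 and 3.87 of all summits. The local background is the library's own reads in the surrounding 10 kb, or the genome average where those are fewer. It was a median of 2.93 times the genome average in the overexpressing library and 2.35 times in control at these summits, against 1.58 and 1.21 at all summits. In 2 control summits, at FOXA1 and PAX8, it stood at that lower limit. It is the denominator of the fold and includes the reads of the peaks themselves. Only 3 of the 60 overexpressing summits and 1 of the 47 control summits reached a 5-fold enrichment, or 5% and 2.1%, against 19.3% and 16.4% of all summits.

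Gene starts were examined within 1000 bp. The RefSeq promoter table used here lists a start for 7 of the genes. FOXA2 and SOX17 are absent from it, so both ends of the span were used for them. A start summit at FOXA2 or SOX17 can thus lie at either end, unlike at the other genes. By this rule 5 of the 9 genes had a start summit in the overexpressing library and 4 in control, where 64.9% and 53.5% of protein-coding genes did. Of the 7 genes with a listed start, FOXA1, PAX2, MSX1 and MSX2 had one in the overexpressing library and PAX8 and MSX2 in control, where 66.4% and 54.4% of such genes did. The 9 genes were therefore not above the genes at large in this respect. MSX2 and SOX17 had a start summit in both libraries (48.8% of all genes did), FOXA1, PAX2 and MSX1 in the overexpressing library alone (16.1%), FOXA2 and PAX8 in control alone (4.75%), and EMX2 and MUC1 in neither.

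SOX17, on chromosome 8 from 54457935 to 54460892, held part of a called interval with 4 summits in the overexpressing library and an interval with 3 summits in control. The overexpressing summits stood at 54457903, 54458240, 54458593 and 54459348, with 21, 20, 25 and 23 reads. The control summits stood at 54458795, 54459352 and 54459708, with 15, 18 and 14 reads. Each of the 4 overexpressing summits was higher than any of the 3 in control. Set as multiples of the genome average pileup, the tallest was 17.5 in the overexpressing library and 11.38 in control.

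Summits in the SOX17 flanks mostly had a counterpart in the other library. Inside the neighbouring gene LOC100129098 the overexpressing library had 24 reads (15.4 to 35.7) at 54466784 and control had 11 (5.5 to 19.7) at 54466885. Farther into it the overexpressing library had 21 reads (13.0 to 32.1) and control 13 (6.9 to 22.2). In all 5 SOX17 pairs, defined as mutually nearest summits within 250 bp, the overexpressing summit was higher after scaling to the genome average, by 0.38 to 1.27 on the log2 scale. The counting intervals of the pileups overlapped in each pair. The highest folds lay near the edge of the window, at 54477250 in the overexpressing library (14 reads, 4.52-fold) and, 973 bp away, at 54478223 in control (16 reads, 4.92-fold).

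Local read density at SOX17 was higher in the overexpressing library. At the summit pair 658 and 860 bp from the lower end of the gene, the surrounding 10 kb held 263 reads in the overexpressing library and 188 in control. These are 5.08 times (4.49 to 5.73) and 3.24 times (2.80 to 3.74) the genome averages, with intervals that do not overlap. The intervals also did not overlap for 2 other SOX17 pairs, at 4.40 against 2.66 times and 3.65 against 2.62 times. The 10 kb windows of neighbouring SOX17 summits share reads, so these are not separate measurements. Among the 24 pairs of the 9 genes, 2 others had intervals that did not overlap, both at PAX2 and both lower in the overexpressing library (1.80 against 2.62 times and 1.06 against 1.73 times). The median log2 ratio of local density over the 24 pairs was 0.06, against 0.0 over the 63901 pairs of the genome. The share of all those pairs with density intervals that do not overlap was not computed, so how common such gaps are is not known here.

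FOXA1, on chromosome 14 from 37589552 to 37595249 on the minus strand, had a start summit in the overexpressing library at 37594739, 510 bp into the gene. It had 21 reads (13.0 to 32.1) and a 2.41-fold enrichment, and the nearest control summit lay 2693 bp away. At equal occupancy, scaled to its depth, the control library would have passed the calling threshold there with a probability of 0.838 (called the detection probability below), so the absence of this summit from the control list is not a firm difference at this depth. This probability uses the summit's own pileup and background, and can be too high because summits are picked as local maxima.

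The strongest FOXA1 summit lay far upstream, 16140 bp before the start and inside the span of TTC6. In the overexpressing library it had 19 reads (11.4 to 29.7) and a 7.02-fold enrichment at 37611389. In control it had 11 reads (5.5 to 19.7) and a 4.65-fold enrichment, 34 bp away. This was the highest fold of any summit in the 9 windows. The local density there was 1.29 times the genome average in the overexpressing library, and at most the genome average in control.

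FOXA2, on chromosome 20 from 22580998 to 22585490, had the lowest summits of the set in the overexpressing library. Its 3 summits there had 8, 11 and 10 reads, all inside the long noncoding RNA gene LINC00261, the highest fold being 4.17 at 22568362. Control had 11 reads and its highest fold, 3.74, at 22568993 in LINC00261, 16 at 22577771 and 18 (10.7 to 28.4) at 22585227, which is 263 bp inside the higher end of FOXA2. The summit at the gene end was thus seen in control alone, with a detection probability of 0.745 in the overexpressing library.

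The paired-box genes PAX8 and PAX2 are long, and most of their summits lay inside the gene. PAX8, on chromosome 2 from 113215997 to 113278921 on the minus strand, had summits in its first 2 kb in both libraries. The overexpressing library had 18 reads (10.7 to 28.4) at 1179 bp and 16 at 1511 bp, and control had 13 (6.9 to 22.2) at 848 bp and 12 at 1852 bp. The intervals overlap between libraries, and the 1000 bp limit alone puts PAX8 among the genes with a start summit in control alone. Its highest fold in the overexpressing library was 12321 bp upstream, outside any gene, with 18 reads (10.7 to 28.4) and 7.01-fold, against 10 reads (4.8 to 18.4) and 4.26-fold in control. The highest fold in control was 4.28, with 11 reads, 10044 bp into the gene.

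PAX2, on chromosome 10 from 100735396 to 100829944 on the plus strand, has 2 listed starts and the most summits. A summit 300 bp after the first start, with 18 reads (10.7 to 28.4) and 2.2-fold, was called in the overexpressing library alone, and none lay within 1000 bp of the second start in either. Its tallest summit, and the tallest of all 9 windows, was in control: 31 reads (21.1 to 44.0) at 100830498, 554 bp past the far end of the gene. There the nearest overexpressing summit lay 2512 bp away with 20 reads, at a detection probability of 0.997. The overexpressing library had 22 reads (13.8 to 33.3) at 100807417 with the nearest control summit 8427 bp away, at a detection probability of 0.996.

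PAX2 pairs went both ways. Of 5 pairs, 2 were higher in the overexpressing library and 3 in control, from -0.44 to 0.35 on the log2 scale. The closest pair, 9 bp apart at 100798999, had 15 reads in the overexpressing library and 13 in control, and folds of 6.35 and 3.75. The surrounding 10 kb, the denominator of the fold, held 55 reads in the overexpressing library and 100 in control. The highest fold in control was 6.01, with 17 reads at 100836666, past the far end of the gene.

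EMX2, on chromosome 10 from 117542746 to 117549546 on the plus strand, overlaps the antisense gene EMX2OS. An interval 7345 bp upstream of the start, inside EMX2OS, had 27 reads (17.8 to 39.3) at 117535401 in the overexpressing library, and the nearest control summit lay 6865 bp away. The detection probability in control was 0.998. Another summit, 1132 bp after the start with 22 reads (13.8 to 33.3), was also called in the overexpressing library alone, at a detection probability of 0.886. The 3 control summits each had an overexpressing counterpart within 65 bp, with nearly level pileups: 11 and 13 reads, 13 and 15, and 11 and 12. The first of these had the highest fold of the window, 3.98 in the overexpressing library and 4.85 in control.

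The homeobox paralogs MSX1 and MSX2 differed. MSX1, on chromosome 4 from 4859665 to 4863936, had no interval in common between the libraries. The overexpressing library had 21 reads (13.0 to 32.1) at 4860304, 639 bp after the start with 2.44-fold, and 9 reads and 2.55-fold upstream. Control had 20 reads (12.2 to 30.9) at 4872742 and 14 at 4877821, where the fold was 3.6, both beyond the far end of the gene. None of these 4 reached a detection probability of 0.95.

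MSX2, on chromosome 5 from 174724582 to 174730896, had a peak near its start in both libraries. The overexpressing library had 14 reads (7.7 to 23.5) at 205 bp and 12 at 455 bp, and control had 17 (9.9 to 27.2) at 511 bp. Of its 6 overexpressing summits, 5 lay in an interval that overlapped a control interval. The exception was 18 reads (10.7 to 28.4) at 174735561, beyond the far end of the gene, with 4.17-fold and a detection probability of 0.989. The tallest control summit, 19 reads and 4.29-fold at 174732176, had an overexpressing partner of 17 reads 228 bp away.

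MSX2 was the only gene of the 7 with a listed promoter (250 bases before to 50 after the start, from RefSeq, GRCh38.p14) in which a called interval reached into that stretch. It is printed because 92 of its 300 bases, shown in capitals, lay in the overexpressing interval; the control interval began farther inside the gene. The stretch is chr5:174724332-174724631, plus strand.
MSX2: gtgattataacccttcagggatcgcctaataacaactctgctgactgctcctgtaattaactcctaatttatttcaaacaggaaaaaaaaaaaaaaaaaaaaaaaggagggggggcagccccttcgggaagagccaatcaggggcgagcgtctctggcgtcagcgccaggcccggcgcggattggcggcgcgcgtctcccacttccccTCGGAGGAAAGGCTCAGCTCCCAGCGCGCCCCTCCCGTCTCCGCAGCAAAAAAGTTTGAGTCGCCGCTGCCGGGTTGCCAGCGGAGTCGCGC

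MUC1, on chromosome 1 from 155185824 to 155192915 on the minus strand, had no summit inside the gene in either library. The 7 overexpressing summits lay around it, and each had another gene (KRTCAP2, TRIM46, THBS3-AS1 or THBS3) as its nearest. The summit counts of this window therefore cannot be assigned to MUC1 from position alone. From the lower coordinate upward the 7 summits had 14, 16, 17, 27, 19, 25 and 15 reads. The control library had 2, with 15 reads (8.4 to 24.7) and 16 (9.1 to 26.0), both in the interval farthest from the MUC1 start, at least 25877 bp away on the downstream side, where the overexpressing library had 14 and 16 reads. That interval held the highest fold in each library, 4.55 in the overexpressing library and 3.61 in control. The other 5 summits were seen in the overexpressing library alone.

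Of those 5, the tallest had 27 reads (17.8 to 39.3) at 155179781, inside TRIM46, with a detection probability of 0.977. The summit nearest to MUC1's start lay 2049 bp upstream of it, at 155194964, with 25 reads (16.2 to 36.9), 3.81-fold, and a detection probability of 0.997. It stands 33 bp before the start of the long noncoding RNA gene THBS3-AS1, so it cannot be assigned to MUC1 from position alone. The start of that gene is printed because the summit lies in it; capitals mark the 259 bases inside the called interval, and the stretch is chr1:155194747-155195046, plus strand.
THBS3-AS1: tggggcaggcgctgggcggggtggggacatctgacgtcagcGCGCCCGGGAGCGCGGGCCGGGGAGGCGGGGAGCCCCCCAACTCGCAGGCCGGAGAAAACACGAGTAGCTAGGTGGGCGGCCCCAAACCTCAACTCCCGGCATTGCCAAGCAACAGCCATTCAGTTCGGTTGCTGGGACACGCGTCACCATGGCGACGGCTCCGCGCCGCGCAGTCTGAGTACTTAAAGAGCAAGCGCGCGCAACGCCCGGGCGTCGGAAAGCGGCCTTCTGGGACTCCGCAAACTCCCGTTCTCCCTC

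The promoters of MSX1 and MUC1 are shown together because their start calls contrast: a start summit in the overexpressing library at MSX1, and none within 1000 bp in either library at MUC1. No base of either printed stretch lay in a called interval. The MSX1 summit stood 639 bp after the start, beyond the stretch, with a detection probability of 0.838 in control, so the contrast is not one between the printed sequences. Capitals mark the CCAAT box (CCAAT or ATTGG), the GC box (GGGCGG or CCGCCC) and the TATA box (TATAAA or TTTATA), searched on both strands; GC boxes that overlap in MUC1 run together. The stretches are chr4:4859415-4859714, plus strand, and chr1:155192866-155193165, minus strand.
MSX1: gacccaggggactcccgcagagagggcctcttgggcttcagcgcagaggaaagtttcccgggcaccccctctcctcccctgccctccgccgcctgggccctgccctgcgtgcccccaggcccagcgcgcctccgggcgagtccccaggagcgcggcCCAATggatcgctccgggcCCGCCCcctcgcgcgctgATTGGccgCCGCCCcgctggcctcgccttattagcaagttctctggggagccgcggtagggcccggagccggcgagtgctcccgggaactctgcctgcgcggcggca
MUC1: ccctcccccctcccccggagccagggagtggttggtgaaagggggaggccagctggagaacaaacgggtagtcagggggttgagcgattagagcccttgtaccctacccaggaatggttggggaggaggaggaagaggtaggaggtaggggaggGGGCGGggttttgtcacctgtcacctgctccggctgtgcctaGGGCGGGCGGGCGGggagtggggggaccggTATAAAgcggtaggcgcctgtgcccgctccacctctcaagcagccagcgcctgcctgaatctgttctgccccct

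MSX1 held 2 CCAAT boxes and 2 GC boxes, and MUC1 held 4 GC boxes and a TATA box. Over the 22132 promoters of protein-coding genes in the table, 34.6% held a CCAAT box, 56.3% a GC box and 9.5% a TATA box. A forkhead sequence (TGTTTAC or GTAAACA) was in 0 of the 9 promoter entries of these genes and in 2.9% of all. These are letter matches, and they say nothing on what binds there.

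Base composition moved with start summits over the genome and is given here beside the counts of the 9 genes. All promoters were split by GC content into 4 groups of nearly equal size. In the lowest group (up to 53.0% GC), 24.6% had a summit within 1000 bp of the start in the overexpressing library and 25.6% in control. In the highest group (from 70.3% GC), 79.5% did in the overexpressing library and 61.7% in control. The promoter entries of the 7 genes ran from 57.0% GC at MSX2 to 74.7% at MSX1, with a median of 65.7% against 62.3% over all. FOXA1 (69.3%) and MSX1, the 2 highest, had a start summit in the overexpressing library alone. So did PAX2, at its start with 63.7% GC, while its other start, with 66.7%, had none. MUC1 (65.7%) and EMX2 (58.0%) had none in either library, PAX8 (62.0%) had one in control alone, and MSX2 had one in both. The part of GC content in the difference between the libraries was not tested.

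Across the 9 windows, 25 of 51 overexpressing intervals overlapped a control interval, or 49% (Wilson interval 35.9 to 62.3), and 26 of 43 control intervals overlapped an overexpressing one, or 60.5% (45.6 to 73.6). Over the whole lists the shares were 67.4% of overexpressing and 43.0% of control intervals. Thus the windows had the smaller share in the overexpressing library, the reverse of the order over the whole lists. Of the 26 overexpressing intervals seen alone, 8 had a detection probability (of their best summit) of at least 0.95 in control, and of the 17 control intervals seen alone, 3 had one in the overexpressing library. The matching shares over the whole lists were not computed, and the detection probability can be too high, so these 8 and 3 are not established absences. For the remainder the depth does not tell absence from a missed call.

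The 24 paired summits in the windows gave a median log2 ratio of 0.15 (overexpressing over control, each over its genome average), the same as the 0.15 of 63901 pairs over the genome. The range was -0.44 at PAX2 to 1.27 at SOX17, and 16 of the pairs were higher in the overexpressing library (59.3% were over the genome). FOXA1 had 3 pairs from -0.13 to 0.94, PAX8 had 1 pair at 1.00, EMX2 had 3 from -0.09 to 0.02, MSX2 had 4 from -0.35 to 0.15, MUC1 had 2 at 0.05 and 0.15, and FOXA2 had 1 at 0.01. The counting intervals of the pileups overlapped in 24 of 24 pairs.

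**Figure D3:**
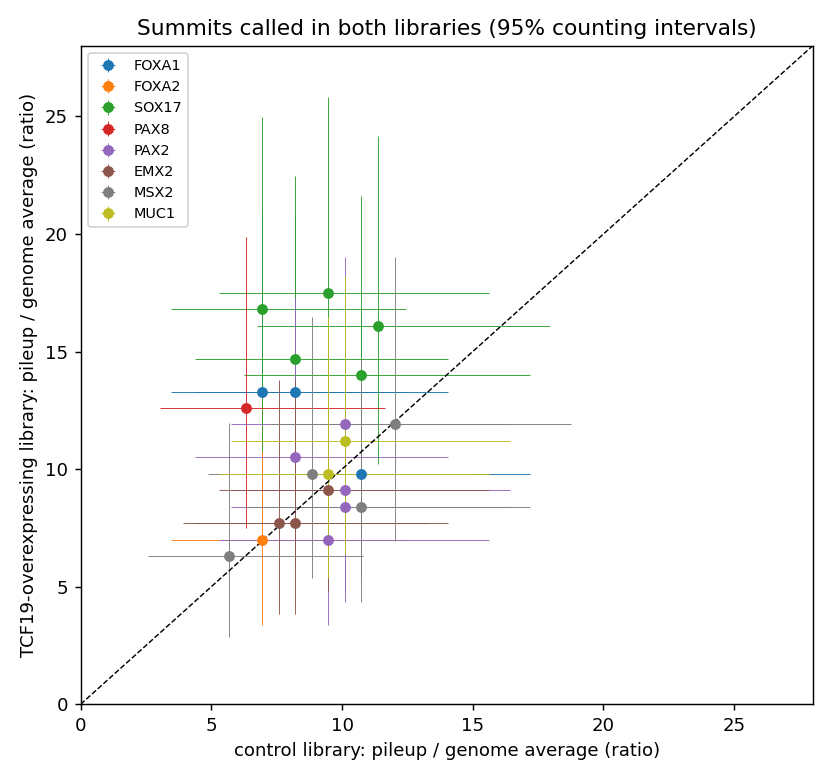
Pileup over the genome average at summits called in both libraries, with the overexpressing library on the vertical and control on the horizontal axis; each point is a pair of summits within 250 bp, bars are 95% counting intervals, and the dashed line marks equal values. The 5 SOX17 pairs lie above the line, the 5 PAX2 pairs lie on both sides of it, and MSX1 had no pair.

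Local read density at the summits also varied by gene. Its median was highest at SOX17 (4.08 times the genome average), MSX1 (3.84), MUC1 (3.71) and EMX2 (3.54) in the overexpressing library, and at FOXA2 (3.16) and MSX1 (3.02) in control. The single highest value was 6.05 times, at the MUC1-window summit in TRIM46, in the overexpressing library, and the highest in control was 5.57 times, at 4133 bp into PAX2. FOXA2 stood apart, with 1.31 in the overexpressing library and 3.16 in control; these medians come from 3 summits each, at different places.

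**Figure D4:**
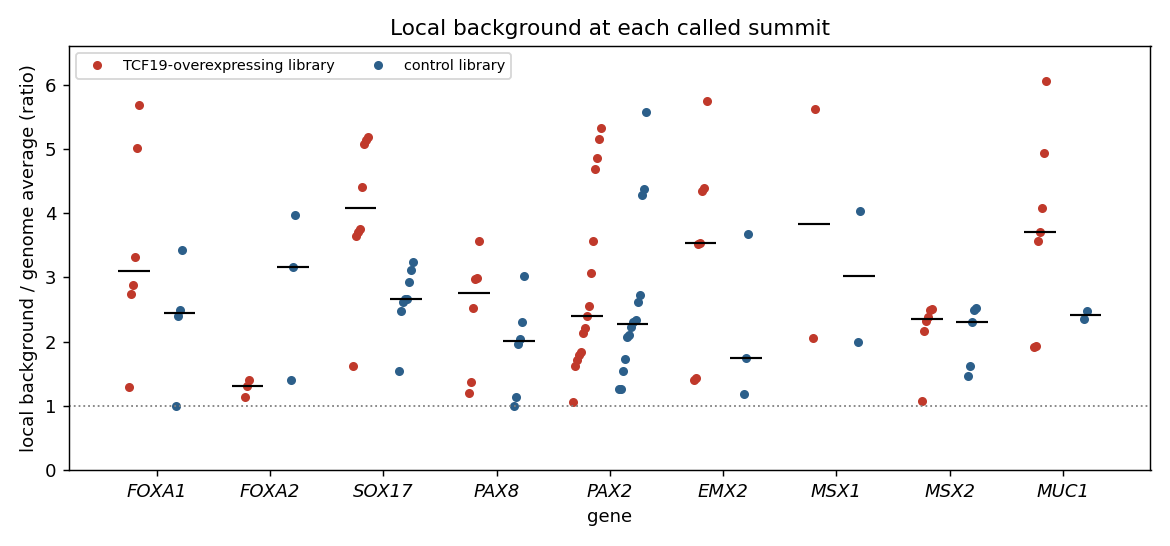
Local background as a ratio to the genome average (vertical axis) at each called summit, by gene, with the overexpressing library left of control; bars are medians and the dotted line is the genome average, the lower limit, where 2 control points (FOXA1 and PAX8) lie. SOX17 summits centre on 4.08 in the overexpressing library and 2.66 in control, and those of FOXA2 on 1.31 and 3.16.

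Related genes were counted in the same way. Of 22 other regulators of the Müllerian duct and endometrium, 14 (63.6%) had a start summit in the overexpressing library and 12 (54.5%) in control. These shares lie near the 64.9% and 53.5% of all protein-coding genes. Of the 22, 9 had one in both libraries, 5 in the overexpressing library alone and 3 in control alone. Over all protein-coding genes 48.8%, 16.1% and 4.75% did. At HOXA10, a homeobox gene of uterine identity, a start summit of 26 reads (17.0 to 38.1) was called in the overexpressing library alone. So were start summits at SOX9, with 24 reads, and at PGR, the progesterone receptor gene, with 15. Reads at places without a called summit were not measured, and no detection probability is given for the genes of these lists. HOXA9, with 21 reads (13.0 to 32.1), was seen in control alone, as were WNT5A and HAND2. ESR1, the oestrogen receptor gene, had 9 reads (4.1 to 17.1) in the overexpressing library and 20 (12.2 to 30.9) in control.

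Of 10 paralogs of the 9 genes, 4 had a start summit in each library, with EMX1 (20 reads) in the overexpressing library alone and FOXA3 (17 reads) in control alone. SOX18, the SOX17 paralog, had 0 summits in its window in either. Of 12 other epithelial genes, 8 had a start summit in each library, 7 of them in both, while ELF3, KRT8 and OVOL1 had one in neither. Among the 7 were CDH1 (E-cadherin), with 17 reads in the overexpressing library and 11 in control, and ESRP1, a splicing factor gene, with 27 (17.8 to 39.3) and 12 (6.2 to 21.0). The keratin gene KRT7 had 24 reads (15.4 to 35.7) in the overexpressing library and 27 (17.8 to 39.3) in control, KRT19 had 15 in the overexpressing library alone, and GRHL2 had 16 in control alone. Of 14 lineage regulators of other tissues, such as MYOD1 of muscle and SPI1 of blood, 7 had a start summit in the overexpressing library and 6 in control. The shares in the overexpressing library ran from 40% for the paralogs to 66.7% for the epithelial genes, with 55.6% for the 9 genes themselves and 64.9% for all genes. In control they ran over the same range, from 40% to 66.7%, with 44.4% for the 9 genes and 53.5% for all genes. Median summit densities per 10 kb were 0.92 in the overexpressing library and 0.87 in control for the regulators of the Müllerian duct and endometrium, 0.85 and 1.0 for the paralogs, 0.69 and 0.88 for the epithelial genes, and 0.93 and 1.09 for the lineage regulators of other tissues. In the overexpressing library these lists, like the 9 genes at 1.3, stood above the median of all genes (0.61). In control these lists also stood above the median of all genes (0.74), while the 9 genes, at 0.67, stood below it. Pooled over their windows, however, the 9 genes stood above all genes in control as well, at 0.85 against 0.71.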

How the data were processed

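The submitters' processing notes name BWA 0.7.12 for alignment, the build hg38 and MACS2 2.1.0 for peaks; whether an input library served is not given in the sources used here. The deposited lists give per summit a score, a fold (ratio), a −log10 p-value and a −log10 q-value, computed by the authors' peak caller for each library, and the smallest −log10 q is 1.3011 in both lists. The deposited score is the whole-number part of 10 times −log10 q at 100% of overexpressing and 99.998% of control summits.

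From the deposited fold, (pileup + 1) / (background + 1), and the Poisson −log10 p, whole-number pileups were recovered at 99.996% of overexpressing and 99.997% of control summits, with a misfit of at most 0.001; the recovery was tested on simulated data. Backgrounds gave whole reads in 10 kb at fragment lengths of 276 and 273 bp. Chromosomes 1 to 22 and X were used. Gene spans came from RefSeq GRCh38.p14, and gene starts from its promoter table, which matched 7 of the 9 genes; FOXA2 and SOX17 were treated by span ends. Intervals are exact Poisson for reads and Wilson for shares. Just inside the 20 kb limit lay a FOXA2 summit (overexpressing, 19983 bp from the span, 8 reads) and a MUC1 summit (control, 19361 bp, 15 reads); just outside lay an MSX2 summit (overexpressing, 20263 bp, 15 reads) and an MSX1 summit (control, 20285 bp, 16 reads). The genes and lists were chosen with earlier results of these data known; the 250 bp pairing, the comparison with genes under 10 kb and the choice of motifs were made after the data were seen. All 9 genes are named, each with its summits of highest fold or nearest the start, and other tall or unpaired summits were named after their values were seen. Python 3.11.15, scipy 1.17.1 and pandas 2.3.3 were used.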

Additional observations from a re-analysis of the deposited data

How the results depend on the processing

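Of 34 alternative counts over the 9 genes, 21 stayed within 1.5 times the value reported; of 90 alternative counts for single genes, 40 did. With a flank of 5 kb the windows held 33 summits in the overexpressing library and 30 in control, and with 50 kb control held 78. At a fold of at least 5, 3 genes with 3 summits were left in the overexpressing library and 1 gene with 1 summit in control. With equal numbers of summits of highest fold, control windows held 19 summits and 1 gene had a start summit in control. That cut is by fold, which had a lower median in the control windows than over the control list. Within 500 bp of the start, 3 genes had a summit in the overexpressing library and 1 in control. Requiring summits within 100 bp of each other, 14 intervals were shared in each library. No paired analysis was possible because each group had 1 library; for the same reason none could be left out. Depth limits absence: a summit near the calling threshold can be missed in the other library at equal occupancy.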
